A study of Mus musculus with 23 samples.

Results

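The unfolded protein response (UPR) and the integrated stress response (ISR) were followed at the mRNA level in mouse sciatic nerves (SNs) through 10 genes, taken by symbol from a list: the transcription factors Atf4, Atf5 and Ddit3 (CHOP), their targets Asns, Gadd45a, Trib3 and Chac1, and the endoplasmic reticulum (ER) genes Hspa5 (BiP), Xbp1 and Dnajb9 (ERdj4). All 10 were listed among the 43068 genes of the crush libraries and the 22880 genes of the iKO libraries. The crush experiment comprised SNs of wild-type C57BL/6J male mice (C57bl6 in the labels) at 3 days post crush (dpc, n = 4), the contralateral SNs of crushed animals (n = 4) and SNs of uncrushed surgery controls (n = 3). The iKO experiment comprised SNs of C57bl6-background mice of either sex at 3 months post tamoxifen (mpT), with 3 nerves in each of 4 groups. Dicer iKO mice were Dicer1 flox/flox and Dgcr8 iKO mice were Dgcr8 flox/flox, both heterozygous for a CreERT2 transgene, a tamoxifen-inducible Cre recombinase that its promoter directs to Schwann cells (SCs). Their controls carried the same floxed alleles without Cre, and all 4 groups had received tamoxifen. The mutant nerves had been preselected for affected morphology, and cells other than SCs keep both genes.

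When unfolded proteins accumulate in the ER, the sensors PERK (Eif2ak3), IRE1 (Ern1) and ATF6 start the UPR: PERK phosphorylates eIF2alpha, IRE1 splices Xbp1 mRNA, and ATF6 is cleaved to a transcription factor that raises ER chaperones such as Hspa5. The ISR is the arm that runs through eIF2alpha, which other kinases also phosphorylate when amino acids or heme are short or double-stranded RNA is present. Bulk protein synthesis then falls while ATF4 is translated and induces genes of amino acid supply and, under lasting stress, Ddit3. Myelinating SCs make large amounts of membrane protein in the ER, and SCs after nerve injury leave the myelinating state. ATF4 and ATF5 are regulated largely at translation, so that mRNA levels such as those given here do not measure the proteins.

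Promoter sequences show which of the 10 genes carry the classical elements of these pathways next to their start. In the 250 bases before the RefSeq start (GRCm38.p6), the ER stress response element (ERSE, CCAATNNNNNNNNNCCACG) was found in Hspa5, and the C/EBP-ATF response element type TGATGNAA was found in Chac1 and Asns. The core TGACGTGG of the UPR element was found in 0 of the 10. Over 32817 mouse promoter windows of the same length searched on both strands, ERSE occurred in 0.113%, TGATGNAA in 3.45% and TGACGTGG in 0.564%. The windows of the 3 genes are given 5′ to 3′ on the gene's strand, with the element in capitals. In Chac1 the capitals read as the element on the other strand.
Hspa5, chr2:34771840-34772089, plus strand: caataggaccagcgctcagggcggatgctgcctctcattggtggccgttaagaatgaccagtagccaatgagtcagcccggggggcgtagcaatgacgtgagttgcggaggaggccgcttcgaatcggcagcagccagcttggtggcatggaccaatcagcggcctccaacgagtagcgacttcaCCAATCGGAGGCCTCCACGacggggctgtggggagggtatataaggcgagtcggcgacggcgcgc
Asns, chr6:7693210-7693459, minus strand: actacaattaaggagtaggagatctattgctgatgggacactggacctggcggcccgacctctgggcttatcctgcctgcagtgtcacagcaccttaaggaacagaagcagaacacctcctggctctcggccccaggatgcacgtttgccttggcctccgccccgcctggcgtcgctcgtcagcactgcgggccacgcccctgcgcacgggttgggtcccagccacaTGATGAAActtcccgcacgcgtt
Chac1, chr2:119350992-119351241, plus strand: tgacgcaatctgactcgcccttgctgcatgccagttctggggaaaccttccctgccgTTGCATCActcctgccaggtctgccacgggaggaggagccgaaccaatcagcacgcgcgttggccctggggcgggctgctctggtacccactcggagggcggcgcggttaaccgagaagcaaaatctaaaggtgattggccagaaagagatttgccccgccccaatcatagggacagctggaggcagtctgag
These matches describe letters in a window and say nothing of binding in these nerves.

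The genes lie apart in the genome, on GRCm38 at chr2:34771970-34777547 (Hspa5), chr2:119351229-119354381 (Chac1), chr2:152337422-152344032 (Trib3), chr6:7675169-7693254 (Asns), chr6:67035096-67037457 (Gadd45a), chr7:44812256-44816658 (Atf5), chr10:127290774-127296288 (Ddit3), chr11:5520659-5525893 (Xbp1), chr12:44205559-44210326 (Dnajb9) and chr15:80255184-80257541 (Atf4). Some share exonic bases with a gene on the opposite strand. For Gadd45a these are 337 bases (19.1% of its exons) shared with E230016M11Rik, for Atf5 82 bases shared with Nup62 and Il4i1, and for Ddit3 68 bases shared with Mars. The kits named for these libraries are stranded, but whether counting used the strand is not given in the sources used here.

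Total counts per library ranged from 5594859 to 12806066, and 3 counts, the limit set for detection, equal 0.234 to 0.536 CPM (counts scaled to library size). The labelled tissue was borne out by 4 markers of myelinating SCs (Mbp, Pmp22, Prx, Mag), which summed to 22526 to 29763 CPM in the uncrushed and contralateral nerves and to 763 to 1131 CPM at 3 dpc. They summed to 21372 to 34885 CPM in the 6 iKO controls, 15351 to 20191 CPM in Dicer iKO and 9275 to 18616 CPM in Dgcr8 iKO. In the Dicer comparison, the controls differed among themselves, with fibroblast markers (Pdgfra, Dcn, Col1a1) at 10326, 7695 and 3421 CPM in replicates 1, 2 and 3, against 10424 to 11559 CPM in Dicer iKO. Dicer control replicate 3 and Dicer iKO replicates 2 and 3 had 0 counts of the Y-linked genes Ddx3y and Eif2s3y. Dicer1 mRNA in Dicer iKO (log2 fold change −0.11, adjusted p = 0.357) and Dgcr8 mRNA in Dgcr8 iKO (log2 fold change 0.22, adjusted p = 0.233) did not pass the test, so that these summed counts do not check the mutant labels. The paper itself reports, from separate measurements at 3 mpT, lower mRNA of the deleted gene in each mutant. It also reports lower let-7f, a microRNA, in both. The labels do not say whether contralateral and crushed nerves of the same number came from the same animal.

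Levels were first compared between genes per transcript length, as TPM within protein-coding genes. Hspa5, the main HSP70 chaperone of the ER, had the highest mean of the 10 genes in every group, at 146 ± 25.5 (SD) in uncrushed nerves, 159 ± 17.7 in contralateral nerves and 626 ± 46 at 3 dpc. In the mutant experiment its TPM was 257 ± 39.5 in Dicer controls, 364 ± 14.6 in Dicer iKO, 269 ± 57.3 in Dgcr8 controls and 603 ± 50.9 in Dgcr8 iKO. In uncrushed nerves the order continued with Atf4 (85.3 ± 8.70), Ddit3 (58.1 ± 8.22), Xbp1 (44.1 ± 7.90), Dnajb9 (26.9 ± 7.23), Atf5 (20.8 ± 2.96) and Gadd45a (14.2 ± 6.07), and ended with Asns (6.95 ± 2.80), Trib3 (3.17 ± 3.68) and Chac1 (0.666 ± 0.495). Neighbours in this order lay closer than their summed SDs for Ddit3 and Xbp1 and for every pair from Dnajb9 to Chac1. At 3 dpc Gadd45a moved from the 7th to the 2nd place (281 ± 15.4), above Atf4 (138 ± 13.4) and Xbp1 (117 ± 12.9), which lay closer than their summed SDs, while Trib3 (2.81 ± 1.36) and Chac1 (0.585 ± 0.392) stayed last. In Dgcr8 iKO the means of Xbp1 (172 ± 23.1) and Atf4 (163 ± 6.25) were closer than their spread.

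**Figure D1:**
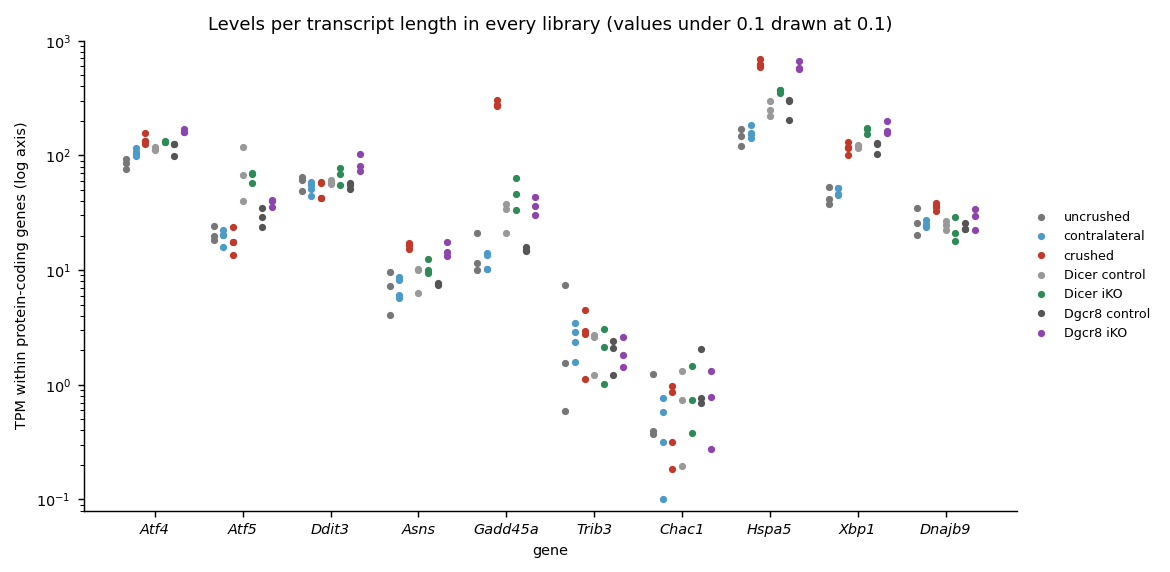
TPM within protein-coding genes (log axis) of the 10 genes in each of the 23 libraries, 1 point per library, coloured by group, with values under 0.1 drawn at 0.1. Hspa5 has the highest group means, 146 to 626, Trib3 and Chac1 have the lowest, and Gadd45a at 3 dpc (281 ± 15.4) stands above its level in all other groups.

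Crush injury was compared first with uncrushed nerves and then with contralateral nerves. Both comparisons use the same 4 crushed nerves and are therefore not independent. At 3 dpc, 6 of the 9 genes that could be tested were higher than in uncrushed nerves, against 33.8% of all 17433 genes tested, and 0 were lower, against 33.4%. Against contralateral nerves also 6 of 9 were higher (33.5% of 16667 genes) and 0 were lower (32.9%). The 6 genes were Gadd45a, Hspa5, Asns, Xbp1, Atf4 and Dnajb9 in both comparisons, and the first 4 exceeded a fold change of 2. The median log2 fold change of the 9 genes was 0.83 against uncrushed and 0.51 against contralateral nerves, beside −0.03 and −0.06 over all genes tested. Of the 17433 genes, 11712 passed after crush, so that the count of 6 of 9 is read against a broad change of the transcriptome.

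Among the factors, Atf4, which encodes the central factor of the ISR, stood at 50.9, 54.2 and 57.9 CPM in the 3 uncrushed nerves, at 62.5, 73.0, 61.9 and 66.3 CPM in contralateral nerves, and at 92.4, 82.8, 77.0 and 76.5 CPM at 3 dpc. The 3 groups did not overlap, and contralateral nerves lay between the other groups. Atf4 was 1.63-fold higher at 3 dpc than in uncrushed nerves (log2 fold change 0.70 ± 0.10 SE, adjusted p = 5.7e-05) and 1.26-fold higher than in contralateral nerves (0.33 ± 0.09, adjusted p = 0.00506).

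Ddit3, whose product CHOP is linked to cell death under lasting ER stress, stood at 15.9, 16.5 and 16.4 CPM in uncrushed nerves, at 14.0, 14.8, 13.4 and 13.2 CPM in contralateral nerves, and at 14.8, 11.1, 13.7 and 10.2 CPM at 3 dpc. Every crushed and contralateral nerve lay below the uncrushed nerves, but crushed and contralateral nerves overlapped. The log2 fold change at 3 dpc was −0.28 ± 0.14 against uncrushed nerves (adjusted p = 0.0957) and −0.14 ± 0.13 against contralateral nerves (adjusted p = 0.332). Without crushed replicate 1 the first of these passed, at −0.41 with adjusted p = 0.0177. Atf5, a factor related to ATF4, ranged from 12.3 to 17.1 CPM in uncrushed, from 10.5 to 14.6 CPM in contralateral and from 8.88 to 14.6 CPM in crushed nerves. These ranges overlapped, and neither comparison passed (−0.23 ± 0.19 with adjusted p = 0.303, and −0.16 ± 0.16 with adjusted p = 0.376). Without crushed replicate 1 Atf5 was lower than in contralateral nerves (−0.35, adjusted p = 0.0377). Of the factors, Atf4 thus passed as higher at 3 dpc, and neither Ddit3 nor Atf5 did.

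Among the targets, Gadd45a, a growth arrest gene that also responds to p53 and to DNA damage, was at 3.78, 6.63 and 3.58 CPM in uncrushed nerves, 3.40, 4.71, 4.72 and 4.10 CPM in contralateral nerves, and 101, 108, 109 and 97.7 CPM at 3 dpc. All crushed nerves were far above the other 7. Gadd45a rose 23.8-fold against uncrushed (log2 fold change 4.57 ± 0.17, adjusted p = 7.41e-10) and 24.6-fold against contralateral nerves (4.62 ± 0.10, adjusted p = 3.67e-13).

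Asns, the asparagine synthetase gene and a textbook target of ATF4, was at 2.79, 4.25 and 5.28 CPM in uncrushed nerves, 4.06, 3.93, 5.02 and 4 CPM in contralateral nerves, and 11.8, 11.2, 11.7 and 9.90 CPM at 3 dpc. All crushed nerves were above all others, with a 3.02-fold rise against uncrushed (log2 fold change 1.60 ± 0.19, adjusted p = 1.51e-05) and a 2.65-fold rise against contralateral nerves (1.41 ± 0.13, adjusted p = 2.46e-07). Trib3, a pseudokinase that dampens ATF4 and AKT signalling, gave 3 to 21 counts per crush-experiment library, and its ranges overlapped (0.360 to 1.53 CPM uncrushed, 0.722 to 1.71 CPM crushed). It did not pass at 0.83 ± 0.53 on the log2 scale (adjusted p = 0.178) or at 0.51 ± 0.33 (adjusted p = 0.192). Without uncrushed replicate 3, which had the highest uncrushed value, Trib3 passed at 1.68 (adjusted p = 0.0208). Chac1, a glutathione-degrading enzyme induced through ATF4 and CHOP, gave 0 to 8 counts per library of this experiment, too few for the test in any comparison, so that no difference was detectable at this depth.

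The ER genes rose together at 3 dpc. Hspa5 was at 114, 139 and 149 CPM in uncrushed nerves, 158, 133, 133 and 131 CPM in contralateral nerves, and 619, 568, 552 and 540.4 CPM in crushed nerves. The crushed nerves were above all others, 4.58-fold over uncrushed (log2 fold change 2.19 ± 0.12, adjusted p = 1.28e-08) and 4.16-fold over contralateral nerves (2.06 ± 0.09, adjusted p = 7.37e-11).

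Xbp1, the UPR transcription factor gene whose mRNA IRE1 splices, was at 31.5, 25.3 and 32.2 CPM in uncrushed nerves, 32.6, 30.6, 34.6 and 30.0 CPM in contralateral nerves, and 69.3, 65.7, 76.4 and 78.9 CPM at 3 dpc. Again crushed nerves did not overlap the others, with a 2.63-fold rise over uncrushed (1.4 ± 0.12, adjusted p = 7.54e-07) and a 2.30-fold rise over contralateral nerves (1.2 ± 0.09, adjusted p = 2.87e-08). Dnajb9, an ER co-chaperone of HSPA5 and a target of spliced XBP1, was at 14.8, 17.6 and 23.3 CPM in uncrushed nerves, 17.7, 17.1, 16.1 and 16.3 CPM in contralateral nerves, and 21.1, 24.5, 25.5 and 21.8 CPM at 3 dpc. A single uncrushed nerve fell within the crushed range, while contralateral nerves were all below it. The rise of Dnajb9 was smaller than that of the other ER genes, with 0.45 ± 0.14 on the log2 scale (adjusted p = 0.0121) and 0.48 ± 0.09 (adjusted p = 0.00034), and against uncrushed nerves it no longer passed when a minimum of 10 counts was asked of every library (0.33, adjusted p = 0.0564).

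**Figure D2:**
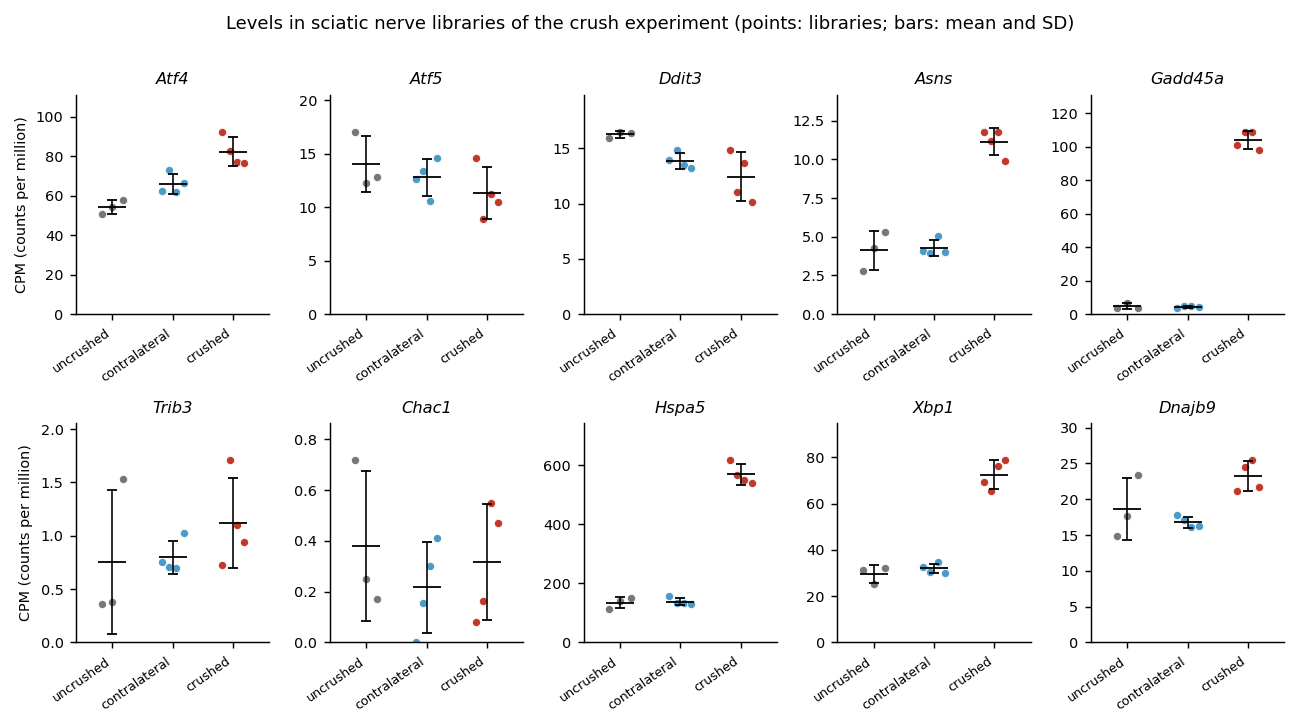
CPM of the 10 genes in the crush experiment, 1 point per library, with bars for the mean and SD of uncrushed (n = 3), contralateral (n = 4) and crushed nerves at 3 dpc (n = 4). Crushed nerves lie above all others for Atf4, Asns, Gadd45a, Hspa5 and Xbp1, while the groups overlap for Atf5, Trib3 and Chac1. Of all genes tested, 33.8% passed as higher than in uncrushed nerves, and the share without overlap was not counted.

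The splicing of Xbp1 itself could not be read from the deposited values. IRE1 removes 26 bases, positions 815 to 840 of the 2129 bases of transcript Xbp1-201, which shifts the reading frame and yields the active factor. The piece and its neighbours are shown here 5′ to 3′ with the removed bases in capitals, because the counts would have to separate mRNAs with and without them.
Xbp1-201: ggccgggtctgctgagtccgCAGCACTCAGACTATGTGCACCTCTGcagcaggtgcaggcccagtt
Of the 4 Xbp1 transcripts in the files, 3 hold this piece, and 0 hold the junction that its removal leaves. Reads of both forms were therefore assigned to the same transcripts. Xbp1-201 took a mean of 71.8% to 73.7% of Xbp1 TPM in the 3 crush groups and 84.3% to 86.9% in the 4 iKO groups, with the same 4 transcripts listed in both experiments. The rise of Xbp1 at 3 dpc is thus one of total Xbp1 mRNA.

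Contralateral nerves were compared with uncrushed nerves to see whether nerves of crushed animals differ away from the crush. Of 8 testable genes, 0 passed, as did 0% of 17722 genes overall by edgeR, with 3165 genes and 2 of the 8 below an unadjusted p of 0.05. The 2 were Atf4, at 66.0 ± 5.12 CPM in contralateral against 54.3 ± 3.53 CPM in uncrushed nerves (log2 fold change 0.28 ± 0.09, adjusted p = 0.158), and Ddit3, at 13.9 ± 0.718 against 16.3 ± 0.311 CPM (−0.23 ± 0.10, adjusted p = 0.253). The 2 lay in opposite directions. For both the groups did not overlap, but the share of all genes without overlap was not counted. By DESeq2, 195 genes passed, of which 0 were among these 8. The median of the 8 was −0.04, beside −0.02 over all genes.

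Other genes of the pathway were described through lists that hold 102 further genes. At 3 dpc, 67 of the 97 tested were higher and 17 lower than in uncrushed nerves, and their median was 0.59 on the log2 scale. The counts of this and the following lists stand beside 33.8% higher and 33.4% lower over all genes tested. Against contralateral nerves 60 were higher and 16 lower (median 0.51), beside 33.5% and 32.9% over all genes. The UPR sensors were higher than in uncrushed nerves in 4 of 4 cases (3 of 4 against contralateral nerves), with Atf6b at 1.09 ± 0.17, Ern1 at 0.82 ± 0.12 and Atf6 at 0.73 ± 0.09.

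ER chaperones and foldases were the list with the highest median (1.41), with 14 of 16 higher. They were led by Sdf2l1, a component of the ER chaperone complex (log2 fold change 3.32 ± 0.19, from 1.15 ± 0.116 to 11 ± 0.26 CPM), and by the protein disulfide isomerases Pdia6 (2.24 ± 0.10) and Pdia3 (2.07 ± 0.12). Sil1, a nucleotide exchange factor for HSPA5, was lower (−0.34 ± 0.13). Of the genes of ER-associated degradation 9 of 11 were higher, with Edem1 at 2.17 ± 0.14, and Herpud1 was lower at −0.53 ± 0.14. Against contralateral nerves 5 of the 11 were higher and 2 lower, and the median was 0.20 instead of 0.41.

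The lists of ATF4 targets were counted in the same way, and differences between lists were not tested. Of the aminoacyl-tRNA synthetases 11 of 12 were higher and 0 lower, led by Gars (1.67 ± 0.11), Nars (1.36 ± 0.09) and Aars (1.21 ± 0.11). Of the genes of amino acid synthesis and transport 6 of 14 were higher, among them Mthfd2 (1.65 ± 0.17) and Aldh18a1 (1.41 ± 0.13), and 4 were lower. The lower ones included Phgdh, the first enzyme of serine synthesis, which fell from 109 ± 1.78 to 15.5 ± 3.11 CPM (−2.72 ± 0.13), and the amino acid transporter Slc7a5 (−2.46 ± 0.11). Asns therefore rose beside a list with a median of 0.18.

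Regulators and secreted factors showed 4 of 10 higher and 5 lower, with Atf3 (4.43 ± 0.21) and Cebpb (2.81 ± 0.16) higher and Ddit4 (−1.09 ± 0.16) lower. Of the GADD45 paralogs and p53 targets 4 of 7 were higher and 3 lower. The paralog Gadd45b (4.25 ± 0.23) and the p53 target Ccng1 (1.2 ± 0.13) were among the higher ones, and the p53 targets Cdkn1a (−3.06 ± 0.12) and Sesn1 (−2.18 ± 0.10) among the lower ones. Of the eIF2, eIF2B and phosphatase subunits 7 of 11 were higher, with Eif2s1, which encodes eIF2alpha, at 1.43 ± 0.11, and 1 was lower, Ppp1r15a (GADD34, the stress-induced phosphatase subunit) at −0.50 ± 0.10. Of the other eIF2alpha kinases 2 of 3 were higher than in uncrushed and 1 of 3 than in contralateral nerves. Heat shock genes of the cytosol and mitochondria had 6 of 9 higher, such as Hspd1 (2.14 ± 0.13), and 2 lower, such as Hspa1a (−1.41 ± 0.16). Against contralateral nerves the counts were 14 of 16 higher for ER chaperones and foldases, 11 of 12 for aminoacyl-tRNA synthetases, 6 higher and 4 lower of 14 for amino acid genes, and 7 higher and 1 lower of 11 for eIF2 and its partners. They were 4 higher and 3 lower of 10 for regulators and secreted factors, 4 higher and 3 lower of 7 for GADD45 paralogs and p53 targets, and 5 higher and 2 lower of 9 for heat shock genes.

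Other cell populations moved with the crush. The macrophage markers (Cd68, Adgre1, Csf1r, Aif1, Cd14, Itgam) summed to 34.8 to 67.0 CPM in the 7 nerves without crush and to 229 to 455 CPM at 3 dpc, and all 6 were higher. The proliferation markers Mki67 and Top2a summed to 13.9 to 33.1 CPM and to 663 to 998 CPM, and the myelin markers fell as given above. The SC lineage gene Sox10 was at 205 to 309 CPM in the 7 nerves without crush and at 92.3 to 134 CPM at 3 dpc, and S100b at 397 to 549.5 CPM and at 68.4 to 82.0 CPM. Fibroblast markers summed to 2257 to 3049.6 CPM without crush and to 1647 to 1981 CPM at 3 dpc. In both comparisons 2 of these 3 markers were lower and 1 did not pass. Mean Pdgfra was 134 CPM in uncrushed, 103 CPM in contralateral and 119 CPM in crushed nerves. The neutrophil gene Retnlg had at most 2 counts in any nerve without crush and was at 8.99 to 21.4 CPM at 3 dpc. The neutrophil genes S100a8 and S100a9 gave only 4 to 6 and 3 to 8 counts per crushed nerve, near the detection limit. The rise of this list therefore rests on Retnlg. Sdc1, a marker of plasma cells, which express Xbp1 strongly, was at 5.32 to 8.18 CPM without crush and 23.9 to 28.9 CPM at 3 dpc. Mzb1, another, was at 0.103 to 0.682 CPM without crush and at 0 to 0.241 CPM at 3 dpc. Mean Jchain was 0.439 CPM in uncrushed, 0.274 CPM in contralateral and 0.176 CPM in crushed nerves. Mean Cd79a was 1.56, 0.628 and 0.613 CPM. Of these 4 plasma and B cell markers, only Sdc1 had a higher mean at 3 dpc. The part of these changes in the rise of Hspa5, Gadd45a and the other genes was not tested. In whole nerves, fewer cells of a type and less RNA per cell cannot be told apart, and the same holds for more cells and more RNA.

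In the iKO mutants the question was whether loss of Dicer or of Dgcr8 in adult SCs goes along with a change of these genes. In Dicer iKO, 1 of 9 testable genes, Xbp1, was higher than in controls (12.3% of 13045 genes) and 0 were lower (8.88%), and the median of the 9 was 0.21 on the log2 scale, beside −0.01 over all genes. In Dgcr8 iKO, 6 of 9 were higher (23.9% of 13252 genes) and 0 lower (20.6%), with a median of 0.46 beside −0.01. The 6 were Gadd45a, Asns, Hspa5, Ddit3, Xbp1 and Atf4, and the first 3 exceeded a fold change of 2.

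In Dgcr8 iKO, Hspa5 stood at 599, 563 and 674 CPM against 322, 239.6 and 315 CPM in its controls, without overlap. This was a 2.09-fold rise (log2 fold change 1.06 ± 0.17, adjusted p = 0.000407). In Dicer iKO it stood at 346, 376 and 373 CPM against 326, 252 and 238 CPM, again without overlap, but the log2 fold change of 0.43 ± 0.14 did not pass (adjusted p = 0.0625).

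Xbp1 stood at 139.6, 150.3 and 151 CPM in Dicer iKO against 111, 102 and 103 CPM in controls, and at 145, 132 and 179.7 CPM in Dgcr8 iKO against 115, 101 and 115 CPM. Neither pair of groups overlapped. The rise was 1.39-fold in Dicer iKO (0.48 ± 0.09, adjusted p = 0.0115) and 1.38-fold in Dgcr8 iKO (0.46 ± 0.14, adjusted p = 0.0214). Dnajb9 ranged from 15.0 to 23.6 CPM in Dicer iKO and from 18.5 to 26.8 CPM in Dgcr8 iKO, over the range of the controls, and its differences of −0.14 ± 0.19 (adjusted p = 0.627) and 0.17 ± 0.16 (adjusted p = 0.425) did not pass. In Dgcr8 iKO the log2 fold change was larger for Hspa5 than for Xbp1, and Dnajb9 did not pass in either mutant. Differences between genes were not tested.

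Gadd45a stood at 21, 14.4 and 18.7 CPM in Dgcr8 iKO against 8.5, 7.07 and 7.77 CPM in controls, a 2.30-fold rise without overlap (1.2 ± 0.19, adjusted p = 0.000521). In Dicer iKO, at 15.3, 25.5 and 22.3 CPM against 16.5, 15.2 and 8.92 CPM, the groups overlapped (0.63 ± 0.27, adjusted p = 0.139). Asns stood at 15.8, 12.4 and 8.75 CPM in Dgcr8 iKO against 6.26, 5.58 and 4.66 CPM, 2.24-fold higher and without overlap (1.16 ± 0.25, adjusted p = 0.00309). In Dicer iKO it stood at 7.99, 11 and 9 CPM against 8.33, 7.80 and 5.54 CPM, with overlap (0.37 ± 0.23, adjusted p = 0.292). Trib3 ranged from 0.932 to 2.76 CPM over the 12 libraries and did not pass in either mutant (−0.11 ± 0.49 and 0.18 ± 0.44), and Chac1 gave 1 to 12 counts per library and could not be tested.

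Among the factors, Atf4 stood at 131, 116 and 126 CPM in Dgcr8 iKO against 100.3, 83.3 and 97.9 CPM in controls, a 1.32-fold rise (0.40 ± 0.12, adjusted p = 0.0228). In Dicer iKO it stood at 100.4, 97.5 and 102 CPM against 90.8, 83.7 and 88.8 CPM, also without overlap, but 0.19 ± 0.09 did not pass (adjusted p = 0.153). Ddit3 stood at 27.8, 23.7 and 37.0 CPM in Dgcr8 iKO against 20.4, 22.3 and 18.2 CPM, 1.45-fold higher (0.54 ± 0.18, adjusted p = 0.0294), and at 19.7, 26.9 and 23.9 CPM in Dicer iKO against 20.3, 20.2 and 20.5 CPM, with overlap (0.21 ± 0.14, adjusted p = 0.334). Ddit3 therefore passed in Dgcr8 iKO as a rise, whereas its value after crush was negative.

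Atf5 varied widely among the Dicer control nerves. It stood at 98.8, 54.1 and 31.8 CPM in Dicer controls and at 46.1, 54 and 57 CPM in Dicer iKO (−0.23 ± 0.35, adjusted p = 0.676). In the Dgcr8 groups it stood at 24.3, 21.1 and 28.7 CPM in controls against 33.1, 30.8 and 29.5 CPM in Dgcr8 iKO. These did not overlap, but 0.33 ± 0.15 did not pass (adjusted p = 0.0895). Without Dicer control replicate 1, whose Atf5 value was the highest, the Dicer value turned to 0.28 (adjusted p = 0.396).

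Several of these calls rest on single libraries. Without Dicer control replicate 1, Hspa5 passed in Dicer iKO (log2 fold change 0.57, adjusted p = 0.0121), which makes 2 genes. Xbp1 no longer passed in Dicer iKO without control replicate 2 (0.45, adjusted p = 0.0651), iKO replicate 2 (0.47, adjusted p = 0.0575) or iKO replicate 3 (0.47, adjusted p = 0.0549). With low Y-linked expression as a term, added after the data were seen, Xbp1 passed in Dicer iKO at 0.46 (adjusted p = 0.0321). In Dgcr8 iKO, Hspa5, Gadd45a and Asns passed whichever 1 library was left out. Atf4 did not pass without control replicate 2 (0.31, adjusted p = 0.0578) or iKO replicate 1 (0.36, adjusted p = 0.0921). Xbp1 did not pass without control replicate 1 (0.49), control replicate 2 (0.40) or iKO replicate 3 (0.33), with adjusted p up to 0.0757. Ddit3 did not pass without control replicate 1 (0.54), control replicate 3 (0.45), iKO replicate 1 (0.57) or iKO replicate 3 (0.34), with adjusted p up to 0.117. Atf5 passed in Dgcr8 iKO without control replicate 3 (0.45, adjusted p = 0.0418).

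**Figure D3:**
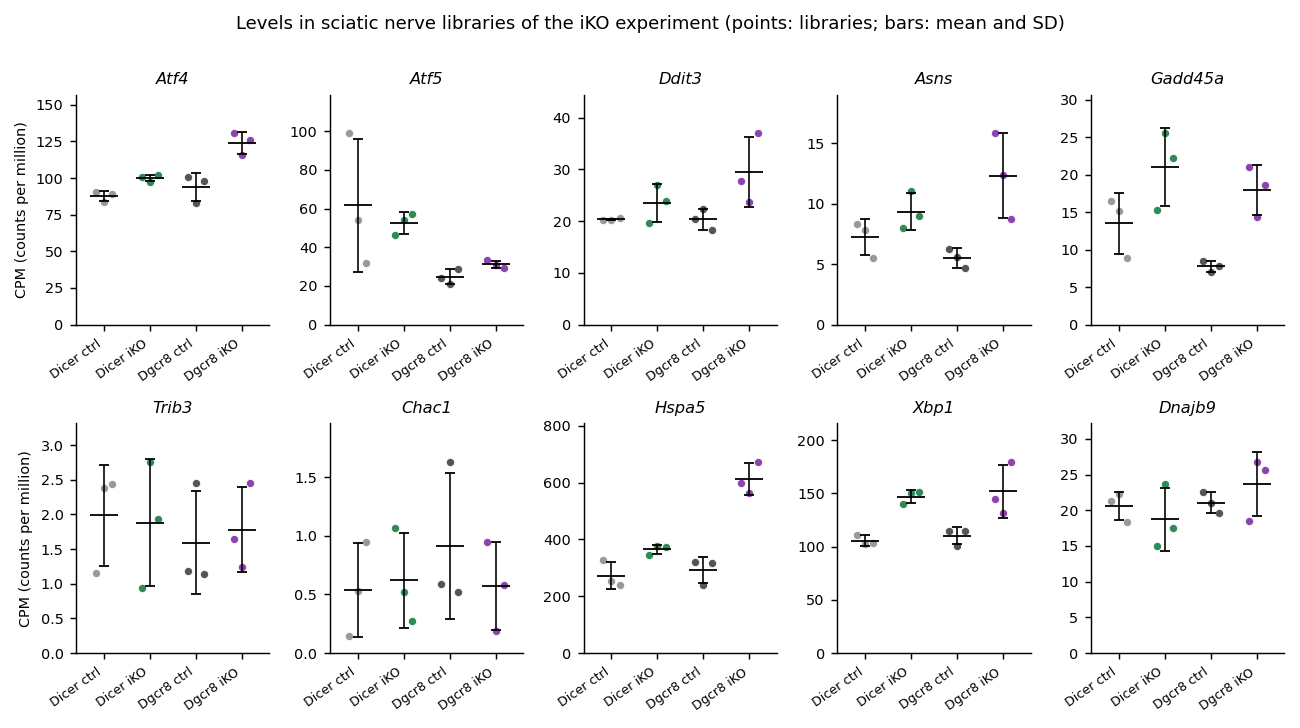
CPM of the 10 genes in the iKO experiment at 3 mpT, 1 point per library, with bars for the mean and SD (n = 3 per group). Hspa5, Gadd45a, Asns, Atf4, Ddit3 and Xbp1 passed as higher in Dgcr8 iKO, beside 23.9% of all 13252 genes tested. Their groups and those of Atf5, which did not pass, do not overlap. The share of all genes without overlap was not counted. The 3 Dicer controls spread from 31.8 to 98.8 CPM for Atf5.

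Whether both deletions differ in effect was tested as an interaction over all 12 iKO libraries. Of the 9 genes 0 passed, against 0.0148% of 13552 genes overall by edgeR (2 genes, and 1861 below an unadjusted p of 0.05). Hspa5 (difference of log2 fold changes, Dgcr8 minus Dicer, 0.64 ± 0.21, unadjusted p = 0.00971, adjusted p = 0.225) and Asns (0.80 ± 0.35, unadjusted p = 0.0401, adjusted p = 0.343) were the 2 below an unadjusted p of 0.05. DESeq2 called 234 genes, of which 0 were among these. For Xbp1 the difference was −0.01 ± 0.17. The median difference over the 9 genes was 0.33, beside −0.00 over all genes. A larger effect in Dgcr8 iKO than in Dicer iKO was thus not established for any of the 10 genes.

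**Figure D4:**
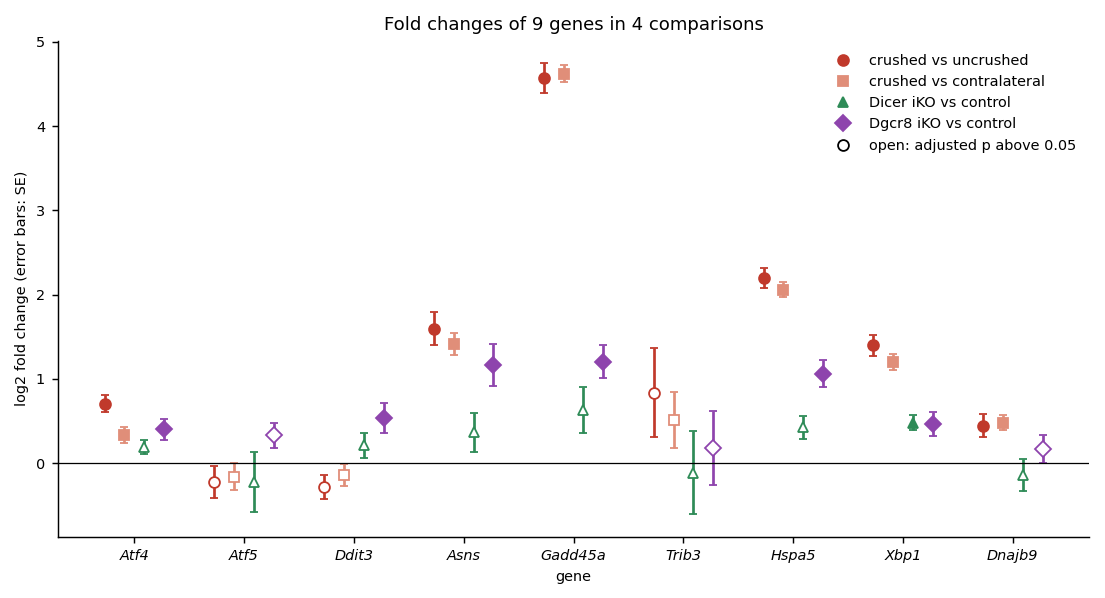
log2 fold changes with SE of the 9 testable genes in crushed against uncrushed nerves, crushed against contralateral nerves, Dicer iKO against control and Dgcr8 iKO against control, with open symbols for an adjusted p above 0.05. Gadd45a after crush (4.57 and 4.62) lies far above all other values, and Xbp1 is the filled symbol of Dicer iKO.

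Of the 102 further pathway genes, 15 of 97 tested were higher and 5 lower in Dicer iKO (median log2 fold change 0.10), beside 12.3% higher and 8.88% lower over all genes. In Dgcr8 iKO 38 of 98 were higher and 10 lower (median 0.25), beside 23.9% and 20.6% over all genes. None of 98 passed the interaction test by edgeR. Of the ER chaperones and foldases 10 of 16 were higher in Dgcr8 iKO (median 0.60) and 6 of 16 in Dicer iKO (median 0.33), with 0 lower in either and the remaining genes not passing. In Dgcr8 iKO Sdf2l1 rose from 3.43 ± 0.11 to 17.4 ± 5.94 CPM (2.34 ± 0.28), and Calr (0.93 ± 0.15) and P4hb (0.90 ± 0.15) rose as well. In Dicer iKO Pdia3 (0.55 ± 0.13) and Pdia4 (0.49 ± 0.10) rose. Edem1, which directs misfolded glycoproteins to degradation, was higher in Dicer iKO (1.27 ± 0.18) and in Dgcr8 iKO (1.42 ± 0.15).

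Of the UPR sensors, 3 of 4 passed as higher in Dgcr8 iKO (Atf6b 0.83 ± 0.16, Ern1 0.62 ± 0.15, Eif2ak3 0.49 ± 0.12) and 1 in Dicer iKO (Atf6b 0.63 ± 0.18). Eif2ak2, the kinase that senses double-stranded RNA, was higher in Dgcr8 iKO (1.24 ± 0.15). Of the genes of amino acid synthesis and transport 5 of 15 were higher in Dgcr8 iKO, such as Aldh1l2 (1.49 ± 0.23) and Aldh18a1 (1.2 ± 0.14), and 5 lower, such as Slc7a5 (−1.67 ± 0.16) and Phgdh (−1.09 ± 0.13). In Dicer iKO 2 were higher and 2 lower. Of the 12 aminoacyl-tRNA synthetases 2 rose in Dgcr8 iKO, Aars (0.64 ± 0.12) and Gars (0.35 ± 0.13), and 0 passed in Dicer iKO (median 0.09).

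Regulators and secreted factors had 7 genes higher in Dgcr8 iKO and 4 in Dicer iKO, with 0 lower. Gdf15, a secreted stress cytokine, was at 0.261 ± 0.367 CPM in Dgcr8 controls and 17.4 ± 16.2 CPM in Dgcr8 iKO, and at 0.188 ± 0.221 CPM in Dicer controls and 6.71 ± 2.31 CPM in Dicer iKO, with control means below the detection limit of these libraries. Sesn2, a sestrin induced through ATF4, was higher in Dgcr8 iKO (2.60 ± 0.31) and in Dicer iKO (1.32 ± 0.28). For the GADD45 paralogs and p53 targets 3 of 7 were higher and 2 lower in Dgcr8 iKO, and 0 were higher and 2 lower in Dicer iKO, with Ccng1 higher in Dgcr8 iKO (1.28 ± 0.21) and Sesn1 and Cdkn1a lower in both mutants (−0.80 ± 0.18 and −0.60 ± 0.15 in Dicer iKO, −1.09 ± 0.18 and −0.79 ± 0.18 in Dgcr8 iKO). Of the eIF2, eIF2B and phosphatase subunits 2 were higher and 2 lower in Dgcr8 iKO, with 0 in Dicer iKO, and 1 of them is the Y-linked Eif2s3y. Of the heat shock genes 3 were higher and 1 lower in Dgcr8 iKO and 1 was lower in Dicer iKO, Hspa1b in both cases (−0.84 ± 0.19 and −0.86 ± 0.22).

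**Figure D5:**
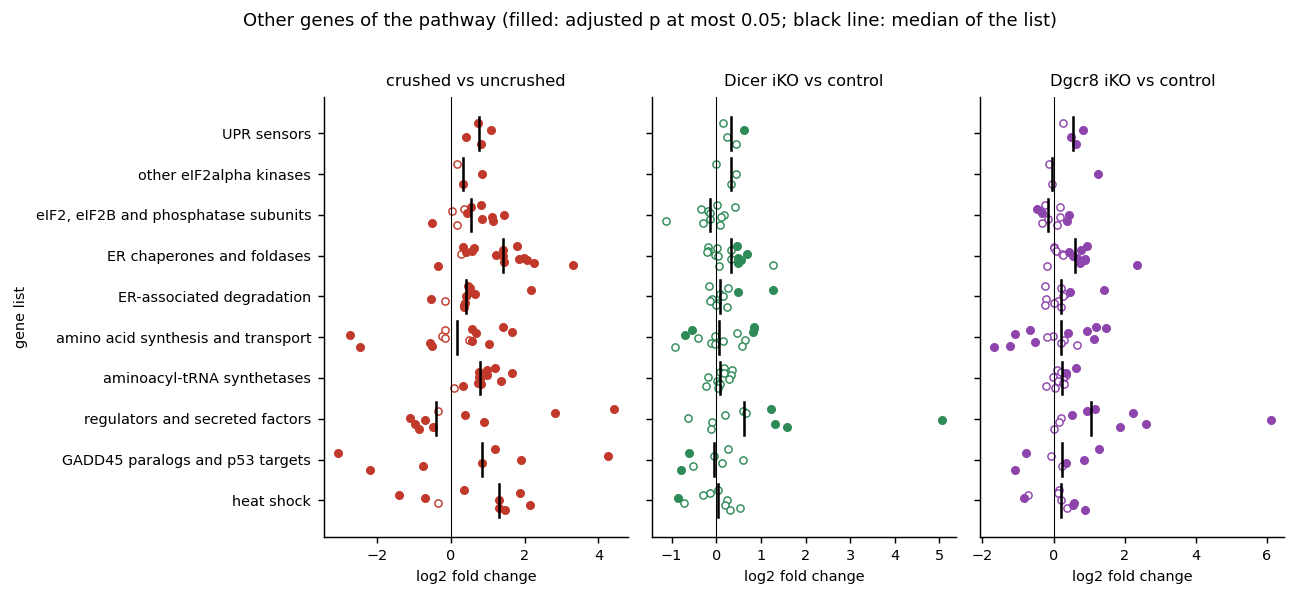
log2 fold changes of the 102 further pathway genes by list, for crushed against uncrushed nerves, Dicer iKO and Dgcr8 iKO against their controls, with filled points for an adjusted p of at most 0.05 and a black line at the median of the list. The medians of ER chaperones and foldases are 1.41, 0.33 and 0.60 in the 3 comparisons, and amino acid synthesis and transport spreads to both sides of 0.

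Markers of other cells moved in the mutants too. Macrophage markers summed to 103 to 124 CPM in Dgcr8 controls and 413 to 788 CPM in Dgcr8 iKO, with 5 of 6 higher, and to 101 to 300 CPM in Dicer controls and 578 to 832 CPM in Dicer iKO, with 4 of 6 higher. Mki67 and Top2a summed to 6.43 to 9.80 CPM and 168 to 247 CPM in the Dgcr8 groups and to 4.86 to 11.9 CPM and 62.0 to 88.0 CPM in the Dicer groups. Fibroblast markers summed to 3696 to 4626 CPM in Dgcr8 controls and 7549 to 9706 CPM in Dgcr8 iKO, with 2 of 3 higher. Mean CPM went from 1600 to 4514 for Col1a1 and from 2420 to 3771 for Dcn, but from 260 to 240 for Pdgfra. In Dicer iKO 1 of 3 was higher, with means from 1492 to 5197 CPM for Col1a1, from 5207 to 5286 CPM for Dcn and from 448 to 343 CPM for Pdgfra. Plasma cells express Xbp1 strongly. Markers of plasma and B cells summed to 17.7 to 20.7 CPM in Dgcr8 controls and 62.3 to 81.2 CPM in Dgcr8 iKO. The sum was mostly Sdc1, at 19.1 ± 1.85 and 67.2 ± 10 CPM. The means of Jchain were 0.169 and 1.39 CPM. Those of Mzb1 (0.0787 and 0.102 CPM) and Cd79a (0.148 and 0.198 CPM) lay below the detection limit. In the Dicer groups these markers summed to 21.5 to 67.7 CPM in controls and 50.4 to 75.4 CPM in Dicer iKO, with overlap. This sum too was mostly Sdc1, with means of 44.6 and 62.6 CPM. Mzb1 and Cd79a did not exceed the detection limit in either Dicer group, nor did Jchain in Dicer iKO. The part of these populations in the values of the 10 genes was not tested.

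The genes with the most similar profiles were sought over the libraries of each experiment, as Pearson r of log2(CPM + 1), which here follows largely the difference between groups that the libraries share. Over the 11 crush libraries Hspa5 was closest to Hist2h2ab, Met and Tnc (r = 0.996 each), Gadd45a to Pros1, Dpysl3 and Ccnf (r = 0.997 to 0.998), Xbp1 to Chsy1 (0.991) and Asns to Ythdf2 (0.992). Atf4 was closest to Mta2 (0.973) and Dnajb9 to Skp2 (0.967), with lower values for Atf5 (Mpst, 0.924) and Ddit3 (Casp9, 0.896). Over the 12 iKO libraries Hspa5 was closest to Copb1 (0.975), Socs2 (0.973) and the ER chaperone gene Calr (0.971), Gadd45a to Vsir (0.978), Xbp1 to Ctsz (0.977), Asns to Plpp5 (0.969) and Atf4 to Wdr1 (0.973). Ddit3 was closest to Cfp (0.945), Atf5 to Foxd2 (0.965) and Dnajb9 to Lef1 (0.932). These values describe 16604 and 13258 genes compared, without a test. Trib3 and Chac1 were too low for a profile in the crush libraries, and Chac1 also in the iKO libraries. Over the iKO libraries Trib3 was closest to Cers1 (0.823).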

How the data were processed

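RNA of 23 mouse SN libraries was used, 11 of the crush and 12 of the iKO experiment. The authors trimmed reads with Trimmomatic, aligned them with STAR to Ensembl GRCm38 and quantified transcripts with RSEM. Their deposited expected counts, which are estimated and not normalized, were summed per gene and rounded, with symbols from GENCODE M21. The TPM values deposited by the authors' RSEM run were summed per gene and rescaled to protein-coding genes for levels, since 1 transcript of 109 bases takes 61.4% to 71.8% of TPM in the crush libraries. By the labels the crush libraries were made with a SMARTer pico kit and the iKO libraries with TruSeq, whereas the methods describe TruSeq, so levels were not tested between experiments. The crush libraries also list more transcripts. One uncrushed library is titled 3 and described as 4, and its title was used.

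For each pair of groups, genes kept by filterByExpr (minimum count 10) were scaled by TMM and entered the quasi-likelihood test of edgeR (version 4.0.16, with limma 3.58.1 and DESeq2 1.42.0 as alternatives, in R 4.3.3) with Benjamini-Hochberg adjustment over all genes tested. A gene passes at an adjusted p of at most 0.05. Overlap between groups is described for single genes, and the share of all genes without overlap was not counted. SEs were derived from the log2 fold change and its F statistic, and fold changes are positive where the first group is higher. CPM is normalized by TMM over an experiment. Tests were run on simulated data first. The 10 genes and the lists were chosen with earlier results of these data known. All 10 are named in every comparison, and of other lists at most 3 genes per direction, by size of change among those that pass with non-overlapping groups and an average log2 CPM of 1 or more. The most similar genes were the 3 with the highest r. Depth sets a limit of 3 counts, 0.234 to 0.536 CPM, for counting error only. No library copied another (chi-square per degree of freedom 4.36 to 42.4 over 27 replicate pairs). The methods give the replicates of a group as separate mice. Promoters came from RefSeq, with all 10 genes matched. A marker and the promoter name of the Cre transgene are not reported here.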

Additional observations from a re-analysis of the deposited data

Results flagged for a closer look

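In 20 combinations of gene and group with 4 libraries, Dixon's test at the 95% level singled out 3 values, all in contralateral nerves. Chance flags about 1 in 20 such groups. Hspa5 was at 158 CPM in contralateral replicate 1, with the other 3 at 131 to 133 CPM. Asns was at 5.02 CPM in contralateral replicate 3, with the others at 3.93 to 4.06 CPM. Trib3 was at 1.03 CPM in contralateral replicate 4, with the others at 0.702 to 0.755 CPM. The values of Hspa5 and Asns lay below all crushed nerves, and that of Trib3 lay within the crushed range.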

How the results depend on the processing

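The count of the 10 genes that passed kept within 1.5 times of the reported count under most alternatives (RLE normalization, no filter, a minimum of 10 counts in each library, protein-coding genes, DESeq2, limma on TPM, all groups in 1 fit, the replicate block). The exceptions were contralateral against uncrushed nerves, where limma on log2(TPM + 1) called 3 (Atf4 0.75, Hspa5 0.64, Xbp1 0.52, beside a shift of the median of all genes by 0.46), and Dicer iKO, with 2 by DESeq2, by limma on log2(TPM + 1) and by limma on rescaled TPM (an alternative added after seeing the data), each adding Hspa5, and 0 with the replicate block (Xbp1 0.48, adjusted p = 0.064). Leaving out 1 library gave 6 to 7 for crushed against uncrushed, 6 to 7 against contralateral, 0 for contralateral against uncrushed, 0 to 2 for Dicer iKO, 4 to 6 for Dgcr8 iKO and 0 for the interaction.

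By the methods the contralateral nerve of the crushed mice was also taken, so crushed and contralateral nerves may come from the same mice. Same-numbered samples correlated between −0.174 and 0.177 over all pairs of groups. For crushed against contralateral nerves the values were −0.094, 0.140, −0.012 and 0.177 for replicates 1 to 4. Of these, 0.140 and 0.177 lay above every pair with unlike numbers (at most 0.133). These values do not settle whether same-numbered nerves share a mouse, and the numbers were not taken as pairs. Nor can the correlations show whether nerves share a mouse under other numbers. The main test of crushed against contralateral nerves treated them as independent. The replicate block gave 6, 6, 0, 0, 5 and 0 in the order above, losing Ddit3 in Dgcr8 iKO (0.52, adjusted p = 0.0617). Ddit3 was lower at 3 dpc than in uncrushed nerves with 10 counts or more in each library (−0.40), protein-coding genes (−0.39) or all groups in 1 fit (−0.39). Dnajb9 was lost with rescaled TPM (0.43, adjusted p = 0.0658).

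Of 883 values of single genes, 41 changed sign and 0 of these were past the threshold in either fit. With limma on log2(TPM + 1) they were Ddit3 0.43 and Atf5 0.29 for crushed against uncrushed nerves, where the median of all genes was 0.70. Against contralateral nerves they were Ddit3 0.12 and Atf5 0.043, beside a median of 0.25. For contralateral against uncrushed nerves they were Ddit3 0.32, Atf5 0.25 and Dnajb9 0.28, beside a median of 0.46. Each of these values lay below the median of all genes. With rescaled TPM each was negative, for example Ddit3 −0.21 and Atf5 −0.21 in crushed against uncrushed nerves. Without a filter Ddit3 was 0.020 and Atf5 0.0031 against contralateral nerves. With the low-Y term Atf5 was 0.025 in Dicer iKO. The interaction of Xbp1 was 0.0051 with RLE, 0.0030 with counts in every sample, 0.0045 with DESeq2, 0.091 with limma on TPM, 0.068 with rescaled TPM and 0.0018 with the low-Y term. Leaving out 1 library gave ranges across 0 for contralateral against uncrushed (Asns −0.13 to 0.29, Atf5 −0.24 to 0.056, Dnajb9 −0.25 to 0.057, Gadd45a −0.28 to 0.20, Hspa5 −0.035 to 0.13), Atf5 in crushed against uncrushed (−0.41 to 0.011), Dicer iKO (Atf5 −0.54 to 0.28, Dnajb9 −0.32 to 0.0091, Trib3 −0.46 to 0.23), Trib3 in Dgcr8 iKO (−0.12 to 0.59), and the interaction (Trib3 −0.043 to 0.71, Xbp1 −0.15 to 0.094). The causes were not tested. Counts of 0 to 21 per library limit Trib3 and Chac1.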
